A study of Mus musculus with 12 samples.

Results

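Cytosolic ribosomal protein genes encode the protein part of the ribosomes that work outside mitochondria. They were taken from the gene table by symbol: every symbol that begins with RPL or RPS and goes on with a number and at most a short suffix, together with RPSA, RPLP0, RPLP1 and RPLP2. RPS4Y1, RPS4Y2 and the ribosomal protein S6 kinases were left out. The rule found 84 genes among 36292 rows, 52 of the large subunit and 32 of the small subunit. Of these, 82 passed the filter on low counts and were tested. The exceptions were RPL3L, with 13 counts over the 12 libraries, and RPL10L, with 2. The other genes, including all 32 of the small subunit, were tested together with 15836 genes in all.

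The RNA came from tumors that Hep3B cells had formed under the skin of BALB/c nu/nu female mice, which were about 8 weeks old when the cells were injected in Matrigel. Hep3B is a human hepatocellular carcinoma line, and nude mice lack mature T cells. Treatment by mouth, once daily, began when tumors averaged about 500 mm3. The groups received vehicle, 300 mg/kg of H3B-6527, 10 mg/kg of lenvatinib, or both agents together at those doses. H3B-6527 is a covalent inhibitor of the fibroblast growth factor receptor FGFR4, and lenvatinib is an inhibitor of several receptor tyrosine kinases, among them those for vascular endothelial growth factor and fibroblast growth factor. Each of the 4 groups held 3 tumors from separate mice, collected 8 h after dose 4. All tumors came from a single cell line and were read at that single time.

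A ribosome joins a small subunit, which reads the mRNA, to a large subunit, which forms the peptide bond and carries the tunnel through which the new chain leaves. Ribosomal protein mRNAs are among the most abundant in dividing cells, and they begin with a stretch of pyrimidines, the 5′ terminal oligopyrimidine (TOP) motif, through which mTOR signalling sets their translation. MYC is known to raise the transcription of ribosomal protein genes and of the factors that build ribosomes. Growth factor receptors act on both routes.

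The libraries held between 23.8 M and 40.9 M estimated counts, the smallest being H3B-6527 replicate 3. All 6 markers of Hep3B cells (AFP, ALB, GPC3, APOB, FGF19 and KLB) were present. Their summed CPM (counts scaled to a library of 1 M counts) was 69806 to 75609 with vehicle and 105198 to 148034 with H3B-6527. It was 69317 to 87535 with lenvatinib and 120845 to 134492 with the combination. AFP, ALB, GPC3 and KLB were higher in every H3B-6527 tumor than in any vehicle tumor. APOB overlapped between these groups, and FGF19 was lower in every H3B-6527 tumor. Of the endothelial markers, 7 of 8 were in the table, each under 1 CPM, with a sum of 0.129 to 0.782 CPM over the 12 tumors and ERG at 0. Fibroblast markers summed to 115 to 124 CPM with vehicle, 48.8 to 61.4 with H3B-6527, 103 to 120 with lenvatinib and 58.3 to 59.1 with the combination. PDGFRA and PDGFRB made up most of that sum, and 5 of the 8 stayed under 1 CPM on average. Macrophage markers summed to 84.7 to 117 CPM with vehicle, 133 to 202 with H3B-6527, 100 to 110 with lenvatinib and 149 to 186 with the combination, and 5 of the 7 stayed under 1 CPM. CD68 made up most of that sum, at 82.1 to 113 CPM with vehicle and 128 to 196 with H3B-6527. Skeletal muscle markers, of which 4 of 6 stayed under 1 CPM, summed to 2.49 to 3.49 CPM with vehicle, 3.85 to 15.0 with H3B-6527, 1.89 to 3.28 with lenvatinib and 6.07 to 12.97 with the combination. MYH4 was at 0.223 to 0.357 CPM with vehicle and 2.09 to 13.5 with H3B-6527, while CKM was lower in every H3B-6527 tumor than in any vehicle tumor. The part of these levels in the results below was not tested. Ribosomal protein sequences are much alike in human and mouse and have many processed copies in the genome. How reads were sorted by species or divided among copies is not given in the sources used here, so each member's level carries that uncertainty. The table also lists RPL17-C18orf32, RPL36A-HNRNPH2 and RPS10-NUDT3, which overlap RPL17, RPL36A and RPS10 and may share reads with them.

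The ribosomal protein genes took a smaller share of all counts in tumors given H3B-6527, with or without lenvatinib. With vehicle they held 3.67% ± 0.084 (SD, n = 3) of the counts, with single tumors at 3.57 to 3.74%. With H3B-6527 the share was 1.74% in replicate 1, 2.75% in replicate 2 and 2.40% in replicate 3. With the combination it was 2.92% ± 0.088 (SD, n = 3), between 2.83 and 3.00%. With lenvatinib it was 4.12% ± 0.022 (SD, n = 3), between 4.10 and 4.14%. No value of one group fell within the range of another, and H3B-6527 replicate 1 lay farthest from the rest of its group. In bulk RNA, fewer tumor cells and less ribosomal protein mRNA per cell cannot be told apart.

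**Figure D1:**
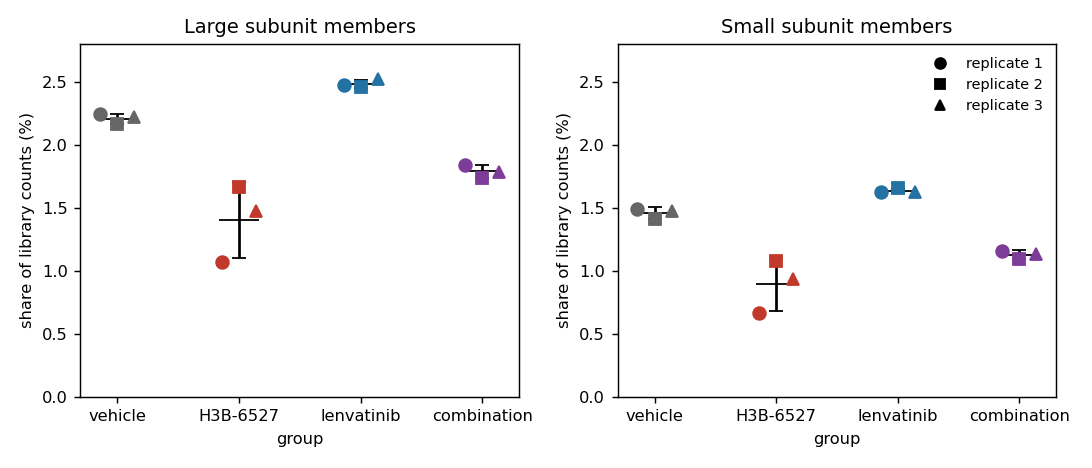
Share of all library counts (%) held by large subunit genes (left) and small subunit genes (right) in each of the 12 tumors. Points are tumors, with the shape giving the replicate, and bars are the group mean ± SD of 3 tumors. In both panels the tumors run from H3B-6527 at the bottom through combination and vehicle to lenvatinib at the top, with the widest spread in H3B-6527.

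The same order of groups was found gene by gene. In 71 of the 82 tested members the group means rose from H3B-6527 to combination, to vehicle and to lenvatinib. This held for 43 of 50 large subunit genes and 28 of 32 small subunit genes. The members with another order included RPL3, RPL7L1, RPL9, RPL10, RPL22L1, RPL26L1, RPL30, RPS27, RPS27L and RPS28.

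H3B-6527 alone lowered most of the module. By edgeR's quasi-likelihood test with Benjamini-Hochberg adjustment over all genes, in 1 fit of the 12 libraries, 73 of 82 members were lower than with vehicle at an adjusted p under 0.05, against a background of 24.3% lower among all genes tested. None was higher, since all 82 estimates were negative, while 25.2% of all genes were higher. The median log2 fold change of the members was -0.56, with an interquartile range from -0.65 to -0.47, and the median of all genes was 0.01. Every H3B-6527 tumor lay below every vehicle tumor in 75 members, against 27.9% of all genes. Of the 73 calls, 56 held under each of the 18 alternatives run, and 17 were lost under at least 1. Without H3B-6527 replicate 1 the test called 71 members lower, against 21.2% of all genes, and the members' median was -0.40. Scaling to library totals in place of TMM moved the median of all genes by -0.12, with 19.1% of genes higher and 31.3% lower. The members' median under that scaling was -0.68, and 78 were called lower.

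**Figure D2:**
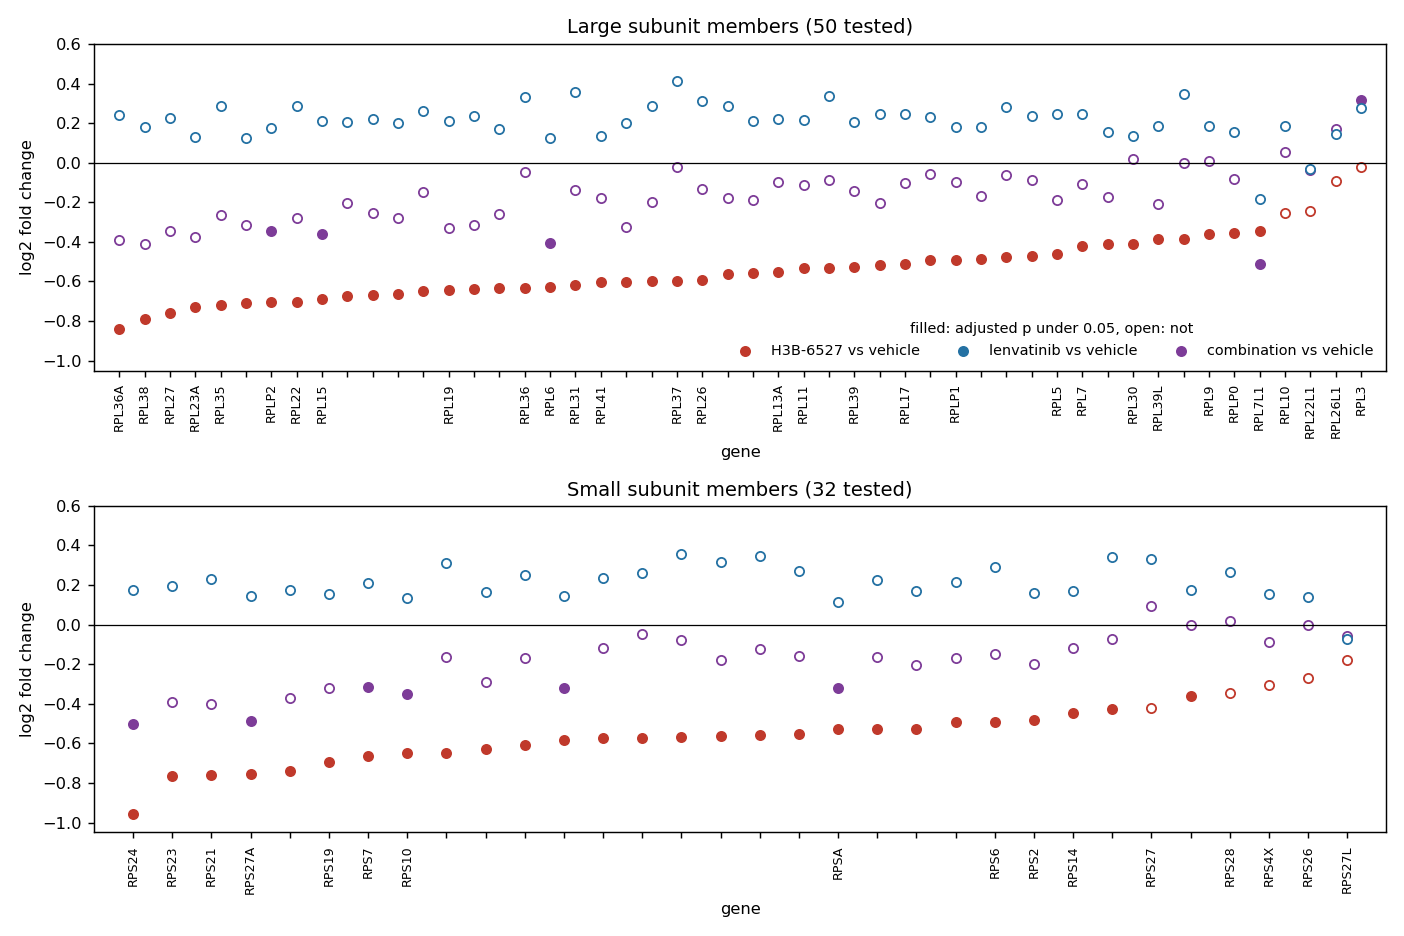
Log2 fold change against vehicle of every tested member, in the large subunit (top, 50 genes) and the small subunit (bottom, 32 genes), ordered by the change with H3B-6527, with the genes that the text names labelled. Red is H3B-6527, purple the combination and blue lenvatinib, filled where the adjusted p is under 0.05. Red points run from -0.96 for RPS24 to -0.02 for RPL3, most purple points lie between red and 0, and most blue points lie above 0 and none is filled.

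RPS24, a small subunit protein needed for maturation of the 18S rRNA, had the largest fall. Its level was 979, 834 and 935 CPM with vehicle and 334, 589 and 493 CPM with H3B-6527. The groups did not overlap, and replicate 1 was the lowest tumor. The log2 fold change was -0.96 ± 0.16 (SE, n = 3 per group, adjusted p = 0.000313), or 0.515 of the vehicle level. RPL36A, a large subunit protein near the exit site for tRNA, stood at 263, 246 and 257 CPM with vehicle and 86.3, 195 and 147 CPM with H3B-6527. It fell by 0.84 ± 0.21 on the log2 scale (adjusted p = 0.00587). RPL38, known for its part in the translation of Hox mRNAs, went from 106, 107 and 101 CPM to 38.7, 78.7 and 64.1 CPM and fell by 0.79 ± 0.18 (adjusted p = 0.00345). RPL27 of the large subunit fell by 0.76 ± 0.18 (adjusted p = 0.00413). RPS23, which lies at the decoding centre, fell by 0.76 ± 0.17 (adjusted p = 0.00269). RPS21 of the small subunit went from 31.1, 26.4 and 31.0 CPM to 12.6, 22.2 and 17.5 CPM. RPS24, RPL36A, RPL38, RPS23 and RPS21 had the 5 largest falls among the members called. These genes and RPL27 were all lowest in replicate 1.

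Small subunit genes fixed by name had smaller falls than RPS24, RPS23 and RPS21, which were named for the size of their falls. RPS27A, made as a fusion of ubiquitin with the ribosomal protein, was at 755, 707 and 740 CPM with vehicle and 317, 536 and 449 CPM with H3B-6527. It fell by 0.76 ± 0.15 on the log2 scale (adjusted p = 0.00121). RPS19, needed for processing of the small subunit rRNA, was at 428, 369 and 427 CPM against 205, 316 and 235 CPM, a fall of 0.69 ± 0.14 (adjusted p = 0.00136). RPSA, also known as the laminin receptor, was at 1279, 1189 and 1299 CPM against 687, 1018 and 906 CPM, and fell by 0.53 ± 0.13 (adjusted p = 0.00406). In all 3 genes the groups were apart. RPS6, the substrate of the S6 kinases, was at 651, 579 and 604 CPM against 307, 519 and 479 CPM, with a fall of 0.49 ± 0.15 (adjusted p = 0.0147). Leaving out vehicle replicate 1 ended that call (adjusted p = 0.0706), as did the fit of these 2 groups alone. RPS14, a protein of the platform, fell by 0.45 ± 0.13 (adjusted p = 0.0116), a call lost only with the 2 groups alone (adjusted p = 0.0567). RPS4X, the X-linked copy of S4, stood at 367, 360 and 343 CPM against 220, 341 and 305 CPM. Its groups did not overlap, and its log2 fold change of -0.31 ± 0.13 missed the threshold (adjusted p = 0.0596).

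Within the large subunit, the acidic stalk and the 5S particle fell as well. The stalk, which recruits the translation factors that use GTP, is built from RPLP0, its base, and the paired proteins RPLP1 and RPLP2. RPLP2 was at 312, 277 and 284 CPM with vehicle and 141, 212 and 183 CPM with H3B-6527, a fall of 0.71 ± 0.12 on the log2 scale (adjusted p = 0.000464). RPLP1 fell by 0.49 ± 0.12 (adjusted p = 0.00379). RPLP0 was at 806, 806 and 810 CPM against 527, 717 and 650 CPM, and fell by 0.35 ± 0.10 (adjusted p = 0.0126), a call lost in the fit of the 2 groups alone (adjusted p = 0.0644). The base protein thus had the smallest estimate of the 3, though the difference between stalk genes was not tested. RPL5 and RPL11 bind 5S rRNA and, when free, inhibit MDM2. RPL5 was at 361, 348 and 351 CPM against 216, 299 and 254 CPM, a fall of 0.46 ± 0.10 (adjusted p = 0.00263). RPL11 was at 726, 659 and 689 CPM against 394, 591 and 450 CPM, a fall of 0.53 ± 0.13 (adjusted p = 0.00402). Both genes were below vehicle in every tumor.

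Further large subunit groups gave similar counts. All 7 genes around the exit of the peptide tunnel (RPL17, RPL19, RPL23A, RPL26, RPL31, RPL35 and RPL39) were lower, with a median of -0.62 and a range of -0.73 to -0.51. Among all genes, 24.3% were lower. RPL13A, which also takes part in control of inflammatory mRNAs, was at 1445, 1362 and 1399 CPM with vehicle and 747, 1191 and 930 CPM with H3B-6527, a fall of 0.55 ± 0.13 (adjusted p = 0.00423). RPL41, a very short basic peptide that bridges the subunits, was at 385, 354 and 384 CPM against 153, 324 and 263 CPM. It fell by 0.60 ± 0.19 (adjusted p = 0.0214), and leaving out vehicle replicate 1 or 3 ended the call, as did dropping the filter on low counts and fitting the 2 groups alone. Of 9 genes of both subunits that are mutated in Diamond-Blackfan anemia, an inherited failure of red cell production, 8 were lower, with a median of -0.64. The exception was RPS26, at 237, 213 and 235 CPM against 157, 230 and 180 CPM (log2 fold change -0.27 ± 0.11, adjusted p = 0.0648).

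The 9 members that did not pass the test with H3B-6527 were RPL3, RPL10, RPL22L1, RPL26L1, RPS4X, RPS26, RPS27, RPS27L and RPS28. RPL3, whose protein reaches toward the site of peptide bond formation, had the estimate nearest 0. It was at 550, 575 and 528 CPM with vehicle and 524, 580 and 526 CPM with H3B-6527, so the groups overlapped. The log2 fold change was -0.02 ± 0.08 (adjusted p = 0.850). RPL3 also varied little within groups, with a within-group SD of 0.060 on the log2 scale, against a median of 0.192 over the 77 members that are not paralogs. RPL10, which joins the large subunit late in the cytoplasm, was at 517, 488 and 506 CPM against 371, 508 and 386 CPM (log2 fold change -0.25 ± 0.11, adjusted p = 0.0716). RPS27, a zinc finger protein of the small subunit, was at 284, 267 and 274 CPM against 188, 276 and 153 CPM (log2 fold change -0.42 ± 0.18, adjusted p = 0.0754). In RPL10 and RPS27 it was replicate 2 that lay at the vehicle level. Without H3B-6527 replicate 2 the test called 79 of 82 members lower, against 22.5% of all genes.

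**Figure D3:**
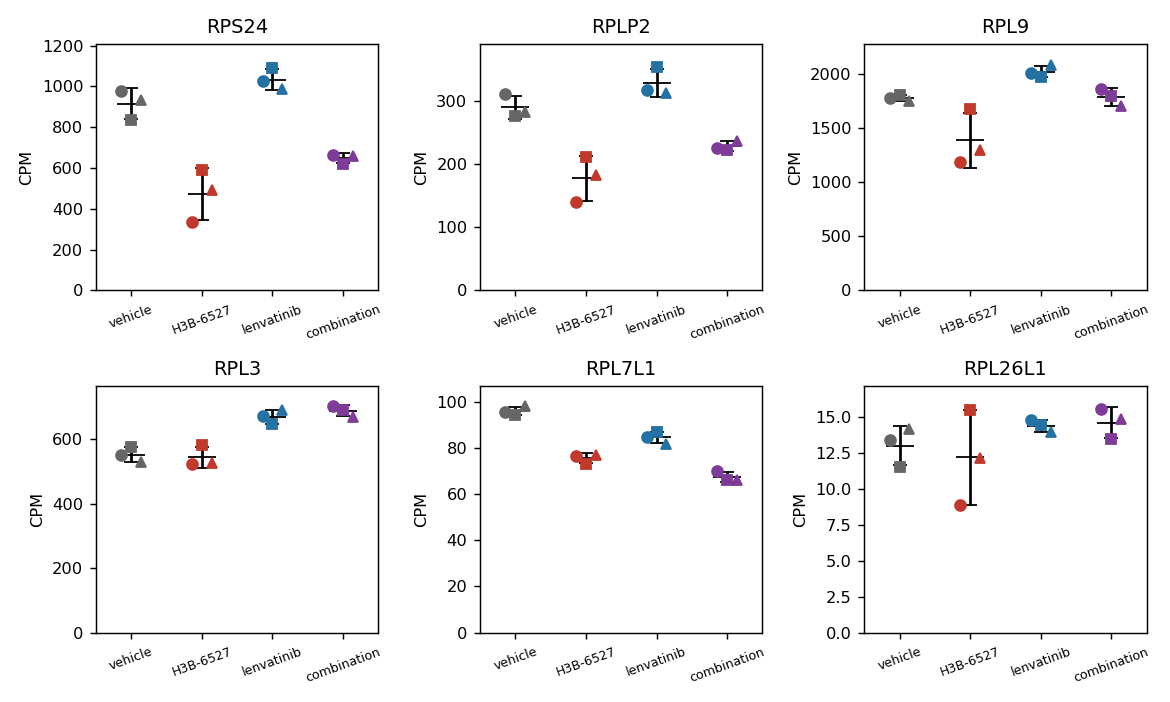
CPM of 6 members in each of the 12 tumors, with each axis starting at 0. Points are tumors, with circles, squares and triangles for replicates 1, 2 and 3, and bars are the group mean ± SD of 3 tumors. RPS24 and RPLP2 are lower in every H3B-6527 tumor than in any vehicle tumor, RPL3 overlaps there and is higher with lenvatinib and the combination, and RPL7L1 is below vehicle in all 3 treated groups.

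The H3B-6527 tumors differed in how far the module was lowered, and the members moved together. Replicate 1 was the lowest of its group in 79 of 82 members, replicate 2 was the highest in 78, and the full order of replicates 1, 3 and 2 held in 76. Averaged over the 77 members that are not paralogs, log2(CPM + 1) was below the vehicle mean by 0.96 in replicate 1, by 0.26 in replicate 2 and by 0.55 in replicate 3. The median within-group SD of these members was 0.192 on the log2 scale, against 0.119 for 5677 other genes at their level or above. A list of 29 short nuclear mRNAs for respiratory chain subunits, chosen after the data were seen, went the same way within the group: -0.53 in replicate 1, 0.08 in replicate 2 and -0.39 in replicate 3. Its part in the result was not tested. The ribosomal protein mean minus that of the respiratory chain list was -0.43, -0.34 and -0.16 in H3B-6527 replicates 1, 2 and 3, and between -0.01 and 0.01 in the vehicle tumors. Of the 29 respiratory chain genes, 8 were lower with H3B-6527, or 27.6%, near the 24.3% of all genes. None was higher by edgeR's quasi-likelihood test, against 25.2% of all genes, and the median was -0.26. By that test 10 had an unadjusted p under 0.05, or 34.5%, against 56.1% of all genes.

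Lenvatinib alone gave no member past the threshold, and no gene of the table passed it in that comparison (background 0% in each direction). By edgeR's quasi-likelihood test 11 members had an unadjusted p under 0.05, or 13.4%, near the 10.7% of all genes. The count of 11 depended on the fit. It was 70 with lenvatinib and vehicle fitted alone, 58 without H3B-6527 replicate 1 and 36 without H3B-6527 replicate 2. It was 5 without vehicle replicate 2. The share over all genes was not computed for those fits. DESeq2 called 1 member higher (0.808% of all genes higher), limma voom called 0 (0.0126% of all genes higher), and the fit of lenvatinib and vehicle alone called 7 higher (0.53% of all genes higher). The estimates were positive in 79 of 82 members, with a median of 0.21 against 0.01 for all genes. Every lenvatinib tumor lay above every vehicle tumor in 73 members, while 11.8% of all genes were placed that way. RPL37, a zinc-binding protein of the large subunit, had the largest estimate. It was at 363, 355 and 344 CPM with vehicle and 472, 459 and 480 CPM with lenvatinib (log2 fold change 0.41 ± 0.15, adjusted p = 0.329). RPL3 was at 670, 645 and 690 CPM with lenvatinib (0.28 ± 0.08 against vehicle, adjusted p = 0.223) and was the member that DESeq2 called (adjusted p = 0.00710). RPL7L1 was the single member with all lenvatinib tumors below vehicle, a placement held by 10.9% of all genes.

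With the combination, most members lay between the vehicle and the H3B-6527 levels. The comparison uses the same vehicle tumors as the one with H3B-6527 alone. The test called 10 members lower, against 25.3% of all genes, and 1 higher, against 24.8% of all genes. The lower members included RPL6, RPL7L1, RPL15 and RPLP2 of the large subunit and RPS7, RPS10, RPS24, RPS27A and RPSA of the small subunit. The median was -0.17 against 0.01 for all genes, and all combination tumors were below all vehicle tumors in 52 members, against 32.8% of all genes. The share of members called lower was thus below the share of all genes. RPS24 was at 665, 619 and 659 CPM, below each vehicle tumor, with a log2 fold change of -0.50 ± 0.16 (adjusted p = 0.0178). RPS27A was at 535, 507 and 528 CPM, a change of -0.49 ± 0.15 (adjusted p = 0.0163). RPL15 of the large subunit was at 256, 238 and 255 CPM against 324, 300 and 338 CPM with vehicle. It fell by 0.36 ± 0.10 (adjusted p = 0.0105). RPL6 was at 215, 233 and 245 CPM against 311, 299 and 307 CPM, a change of -0.41 ± 0.14 (adjusted p = 0.0308). RPL15 and RPL7L1 were the members called lower under each of the 18 alternatives.

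The count of 10 depended on the fit and on single tumors. It was 4 without combination replicate 1, 2 without combination replicate 2, 3 without vehicle replicate 1 and 3 without vehicle replicate 3. It was 32 without H3B-6527 replicate 1 and 23 without H3B-6527 replicate 2, which enter through the shared estimate of the spread, and 33 with the 2 groups alone, where 28.2% of all genes were lower. With these tumors left out, 20.7 to 28.2% of all genes were lower. Scaling to library totals moved the median of all genes by -0.15 and gave 34 members lower with a median of -0.31, while 18.5% of all genes were then higher and 33.7% lower. RPL3 was the member that rose. At 702, 690 and 669 CPM, each combination tumor was above each vehicle tumor, and the log2 fold change was 0.32 ± 0.08 (adjusted p = 0.00519), or 1.25 times the vehicle level. It was not called with scaling to library totals (0.17, adjusted p = 0.107). RPL3 was also the single member with all combination tumors above vehicle, a placement of 31.8% of all genes.

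Set against H3B-6527 alone, the combination gave higher estimates in all members but RPL7L1, and no estimate passed the threshold. By edgeR's quasi-likelihood test 0 members were called, with a background of 0.0126% higher and 0% lower over all genes. Of the members, 65 had an unadjusted p under 0.05, against 9.42% of all genes. DESeq2 called 2 higher (0.48% of all genes higher) and limma voom 0 (0.0189% of all genes higher). The estimates were positive in 81 of 82 members, with a median of 0.37 against -0.01 for all genes, and 44 members had every combination tumor above every H3B-6527 tumor, against 5.95% of all genes. The median was 0.21 without H3B-6527 replicate 1 and 0.55 without H3B-6527 replicate 2. RPL36 and RPL37 had the largest estimates. RPL37 was at 172, 294 and 236 CPM with H3B-6527 and 396, 325 and 324 CPM with the combination (0.58 ± 0.15, adjusted p = 0.326). RPL7L1 was the member with a negative estimate (-0.16 ± 0.06, adjusted p = 0.455) and the single member with all combination tumors below all H3B-6527 tumors, a placement of 7.15% of all genes.

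Set against lenvatinib, the combination lowered a large part of the module. The test called 51 of 82 members lower, 31 of the large and 20 of the small subunit, against 20.9% of all genes. None was higher, against 19.1% of all genes, and the 3 positive estimates were at most 0.04. The median was -0.42, and 76 members had all combination tumors below all lenvatinib tumors, against 29.7% of all genes. RPS24 had the largest fall again, from 1025, 1091 and 985 CPM with lenvatinib to 665, 619 and 659 CPM, or 0.67 ± 0.16 on the log2 scale (adjusted p = 0.00487). RPL36A (-0.63 ± 0.21, adjusted p = 0.0312), RPS27A (-0.63 ± 0.15, adjusted p = 0.00549) and RPS21 (-0.63 ± 0.17, adjusted p = 0.0128) came next. The count of 51 fell to 30, 19 and 27 without combination replicate 1, 2 or 3, where 15.1, 14.8 and 18.9% of all genes were lower. It fell to 33, 23 and 31 without lenvatinib replicate 1, 2 or 3, where 17.7, 15.6 and 17% of all genes were lower. Of the 51 calls, 17 held under each of the 18 alternatives. With scaling to library totals the median of all genes moved by -0.10, and 14.5% of genes were higher and 27.5% lower.

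The effect of H3B-6527 could be read on both backgrounds, since H3B-6527 against vehicle and combination against lenvatinib share no tumor. All 51 members called lower on lenvatinib were also among the 73 called lower on vehicle, which is 69.9% of the longer list and 100% of the shorter. Across the 82 members the estimates of the 2 comparisons had a Pearson r of 0.913 and a Spearman rho of 0.870. Without the paralogs, over 77 genes, they were 0.902 and 0.858. Since 89.0% of the members were called lower on vehicle, almost any shorter list of members would overlap widely with that list. The overlap and the correlations over all genes were not computed. Genes are not independent replicates, so these values describe the ordering and carry no test. For lenvatinib read on vehicle and on H3B-6527, which likewise share no tumor, r was 0.775 and rho 0.625 over the 82 members. The estimate was less negative on lenvatinib than on vehicle in 81 of 82 members, with a median interaction of 0.15 against -0.019 for all genes. No member passed edgeR's interaction test (background 0%), and DESeq2 and limma voom also called 0. In the fit of all tumors no member had an unadjusted p under 0.05, against 5.39% of all genes. The median interaction was -0.018 without H3B-6527 replicate 1 and 0.33 without H3B-6527 replicate 2. Without that replicate 2, edgeR's test gave 33 members an unadjusted p under 0.05 and called 0. The share over all genes was not computed there.

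**Figure D4:**
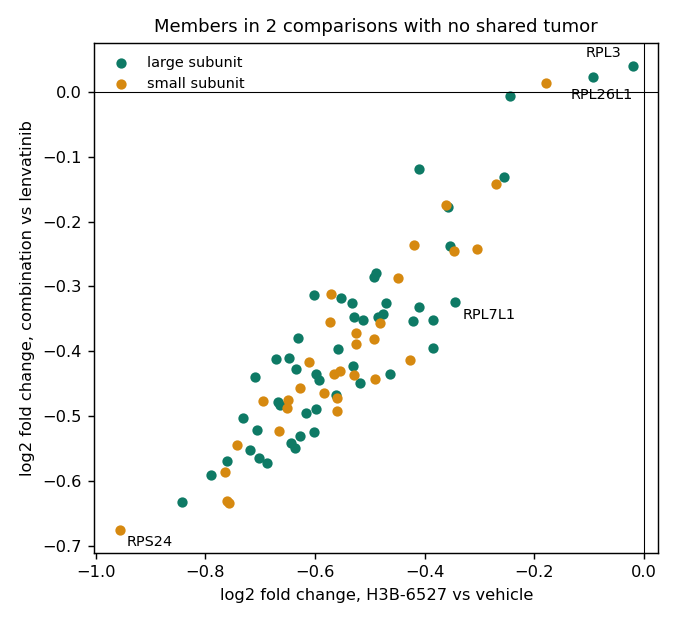
Log2 fold change of each of the 82 tested members with H3B-6527 against vehicle (horizontal) and with the combination against lenvatinib (vertical), green for the large and orange for the small subunit. Points run from RPS24 at the lower left to RPL3 near the origin, with genes of both subunits mixed along the line (Pearson r 0.913).

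Large and small subunit genes had similar medians in each comparison, and the difference between subunits was not tested. With H3B-6527, 46 of 50 large and 27 of 32 small subunit genes were lower, and the median was -0.56 for each subunit. With lenvatinib the medians were 0.21 and 0.20, with the combination against vehicle -0.18 and -0.17, and with the combination against lenvatinib -0.41 and -0.43. Mean log2(CPM + 1) of the large subunit minus that of the small, paralogs left out, was 0.11 ± 0.01 (SD, n = 3) with vehicle, 0.11 ± 0.01 with H3B-6527, 0.12 ± 0.02 with lenvatinib and 0.13 ± 0.01 with the combination. The combination tumors, at 0.120 to 0.136, were above the vehicle tumors, at 0.102 to 0.113, while H3B-6527 and lenvatinib overlapped with vehicle. The ratio of summed CPM, which follows the most abundant genes, was 1.51 ± 0.018 (SD, n = 3) with vehicle and 1.52 ± 0.033 with lenvatinib. It was 1.58 ± 0.031 with H3B-6527 and 1.59 ± 0.0058 with the combination. The H3B-6527 tumors, at 1.55 to 1.61, were above the vehicle tumors, the highest of which was at 1.54. RPL3 and RPL9 hold many of the large subunit counts and had estimates nearer 0 than most. Without these genes, a choice made after seeing the values, the ratio was 1.35 ± 0.0090 with vehicle and 1.36 ± 0.016 with H3B-6527, and these groups overlapped. The combination, at 1.376 ± 0.0011 (SD, n = 3), stayed above every vehicle tumor.

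The 7 paralogs are copies that can take the place of a ribosomal protein or act outside the mature ribosome. With H3B-6527, 2 of the 5 tested paralogs were lower with a median of -0.25, against 4 of the 7 parents with a median of -0.42. Among all genes, 24.3% were lower in that comparison. RPL7L1, which belongs to large subunit precursors in the nucleolus, had groups that stood apart from each other. It was at 95.6, 94.4 and 98.1 CPM with vehicle, 76.5, 73.2 and 77.1 CPM with H3B-6527, 84.9, 86.7 and 81.9 CPM with lenvatinib, and 70.0, 66.2 and 66.1 CPM with the combination. No 2 groups overlapped, and the combination was lowest. It fell by 0.34 ± 0.06 on the log2 scale with H3B-6527 (adjusted p = 0.000706) and by 0.51 ± 0.06 with the combination (adjusted p = 3.88e-05), and was at -0.18 ± 0.06 with lenvatinib (adjusted p = 0.306). Its parent RPL7 was at 365, 349 and 355 CPM with vehicle and 199, 319 and 281 CPM with H3B-6527. RPL7 fell by 0.42 ± 0.13 there (adjusted p = 0.0171), and it was not called when vehicle replicate 1 was left out or the 2 groups were fitted alone.

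RPL26L1, nearly identical to RPL26, was at 13.4, 11.5 and 14.2 CPM with vehicle and 8.93, 15.5 and 12.2 CPM with H3B-6527 (log2 fold change -0.09 ± 0.16, adjusted p = 0.656). RPL26 itself went from 320, 308 and 301 CPM to 150, 256 and 210 CPM and fell by 0.59 ± 0.14 (adjusted p = 0.00370). RPL26L1 thereby made up 4.04% ± 0.444 (SD, n = 3) of the counts of the pair with vehicle, 5.60% ± 0.122 with H3B-6527, 3.61% ± 0.144 with lenvatinib and 4.92% ± 0.368 with the combination. The H3B-6527 tumors, at 5.48 to 5.72%, were above the vehicle tumors, at 3.61 to 4.50%. RPS27L, a target of p53, made up 4.82% ± 0.052 of its pair with vehicle and 5.70% ± 0.401 with H3B-6527, again without overlap. RPL22, which binds viral and cellular RNA outside the ribosome too, was at 151, 150 and 140 CPM against 66.9, 112 and 91.5 CPM, a fall of 0.70 ± 0.14 (adjusted p = 0.00103). RPL22L1, at 13.9, 9.61 and 13.1 CPM against 6.15, 13.8 and 11.0 CPM, was not called (-0.25 ± 0.25, adjusted p = 0.435), and its share of the pair overlapped between groups. RPL39 of the exit tunnel fell by 0.53 ± 0.13 (adjusted p = 0.00415). RPL39L, the member with the lowest mean CPM among those tested, was at 4.72, 4.84 and 4.65 CPM against 3.09, 3.85 and 3.98 CPM. It fell by 0.39 ± 0.13 (adjusted p = 0.0297), and it was not called when H3B-6527 replicate 1 or any 1 of the vehicle tumors was left out, with adjusted p up to 0.120 over the alternatives.

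Further ribosomal protein genes, whose names fall outside the rule, were also read. RACK1, a scaffold on the small subunit, fell by 0.51 ± 0.15 on the log2 scale with H3B-6527 (adjusted p = 0.0122), and RPL36AL fell by 0.40 ± 0.13 (adjusted p = 0.0183). RACK1 was not called with the 2 groups alone (adjusted p = 0.0583), nor RPL36AL without H3B-6527 replicate 1 or vehicle replicate 1. FAU, the source of RPS30, was at -0.27 ± 0.12 (adjusted p = 0.0719). With the combination against vehicle these genes were at -0.27 ± 0.15 for RACK1 (adjusted p = 0.151), -0.09 ± 0.13 for RPL36AL (adjusted p = 0.576) and 0.05 ± 0.12 for FAU (adjusted p = 0.765), none past the threshold.

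The factors that build ribosomes were lower in both groups given H3B-6527. Of 18 assembly genes, 16 were lower with H3B-6527, against 24.3% of all genes, with a median of -0.99. With the combination 17 were lower, against 25.3% of all genes, with a median of -1.10. With lenvatinib, where edgeR called no gene of the table, the median was -0.35 and 17 of 18 estimates were negative. By edgeR's test 12 assembly genes had an unadjusted p under 0.05, or 66.7%, against 10.7% of all genes. In 12 every lenvatinib tumor was below vehicle, against 10.9% of all genes. The ribosomal protein genes had a median of 0.21 with lenvatinib. BYSL, needed for the small subunit, fell to 0.354 of the vehicle level with H3B-6527 (SE 0.12 on the log2 scale, adjusted p = 1.57e-06). NOP58, a core protein of box C/D particles, fell by 0.96 ± 0.09 (adjusted p = 4.24e-06), and NOP2, an rRNA methyltransferase, fell by 1.20 ± 0.11 (adjusted p = 5.02e-06). Averaged per tumor, the assembly list was below the vehicle mean by 1.08, 0.85 and 0.75 in H3B-6527 replicates 1, 2 and 3 and by 0.85, 1.06 and 0.91 in the combination. The ribosomal protein mean was below vehicle by 0.15, 0.21 and 0.20 in those combination tumors. Against H3B-6527 alone, the combination had a median of -0.10 for the assembly genes and 0.37 for the ribosomal protein genes, and the difference between lists was not tested. A link between the level of MYC and these lists was not tested. MYC was at 46.2 to 48.3 CPM with vehicle, 5.27 to 8.38 with H3B-6527, 36.5 to 53.2 with lenvatinib and 11.7 to 15.3 with the combination. It fell by 2.78 ± 0.17 with H3B-6527 (adjusted p = 4.91e-07) and by 1.77 ± 0.17 with the combination (adjusted p = 5.58e-06).

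**Figure D5:**
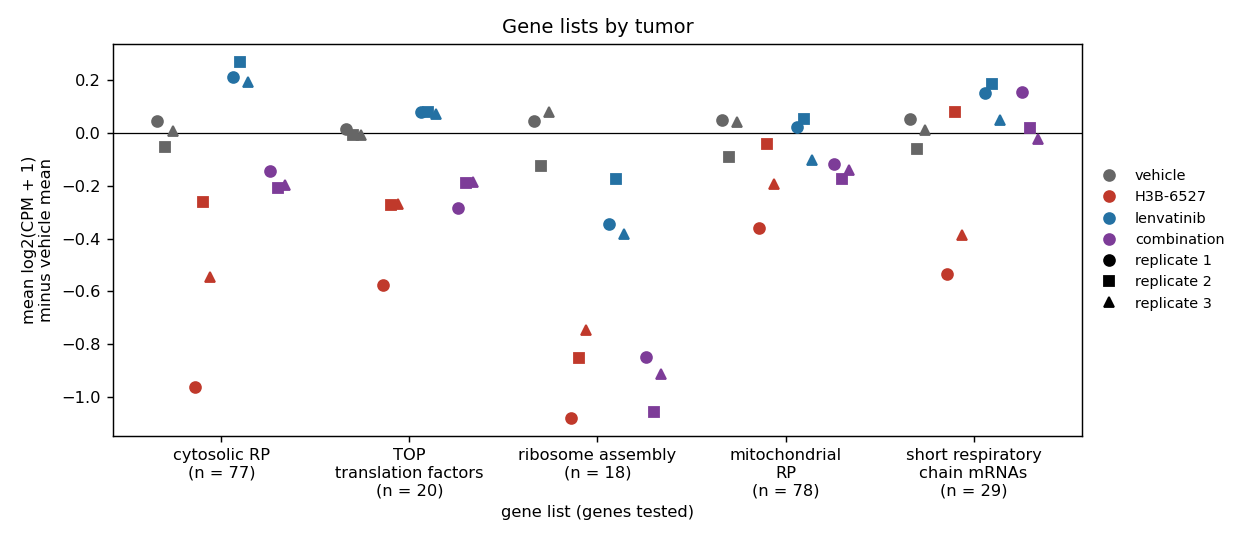
Mean log2(CPM + 1) of 5 gene lists in each tumor, as the difference from the vehicle mean of that list. Color gives the group and shape the replicate. The cytosolic ribosomal protein genes are lowest in H3B-6527 replicate 1 (-0.96) and near -0.2 in the combination, while the assembly genes are near -0.9 in both groups given H3B-6527.

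Genes that guard or carry ribosomal proteins before assembly were mostly lower too. Of 13 dedicated chaperones and nuclear import receptors, 11 were lower with H3B-6527, against 24.3% of all genes, with a median of -0.50. With the combination 11 were lower, against 25.3% of all genes, with a median of -0.64. IPO7, an import receptor for ribosomal proteins, fell by 0.91 ± 0.09 with H3B-6527 (adjusted p = 7.68e-06). LTV1, an assembly factor of the small subunit head, fell by 1.02 ± 0.12 (adjusted p = 1.96e-05), and PRMT3, which methylates RPS2, fell by 0.91 ± 0.12 (adjusted p = 4.29e-05).

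Translation factors were read in 2 lists, with and without a TOP motif. The list with the motif also held NPM1, HNRNPA1, NAP1L1, TPT1, BTF3 and NACA, which are not initiation or elongation factors. Of 20 mRNAs that carry the motif, 11 were lower with H3B-6527, against 24.3% of all genes, with a median of -0.30. With the combination 7 were lower, or 35.0%, against 25.3% of all genes, with a median of -0.19. EIF3M fell by 0.74 ± 0.10 (adjusted p = 6.35e-05), EIF3E by 0.45 ± 0.08 (adjusted p = 0.000381) and EIF3K by 0.37 ± 0.08 (adjusted p = 0.00193), all subunits of the factor that loads the small subunit. Of 17 other initiation factors, 12 were lower with H3B-6527, with a median of -0.40, and 12 with the combination, with a median of -0.55. The shares of all genes were 24.3% and 25.3%. EIF2B2 of the exchange factor for EIF2 fell by 0.71 ± 0.11 (adjusted p = 0.000187). EIF6, which keeps the large subunit from joining too early, fell by 0.72 ± 0.12 (adjusted p = 0.000272), and EIF2S2 fell by 0.63 ± 0.10 (adjusted p = 0.000298). The TOP group thus had the same direction as the ribosomal protein genes with a smaller median, and the difference between lists was not tested.

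Among 15 genes of mTOR signalling and TOP control, 4 were higher with H3B-6527, or 26.7%, near the 25.2% of all genes, and 1 was lower, with a median of -0.03. TSC1, an inhibitor of mTOR, rose by 0.42 ± 0.08 on the log2 scale (adjusted p = 0.000883), and SESN2, a stress-induced inhibitor of mTOR, rose by 0.55 ± 0.11 (adjusted p = 0.00107). EIF4EBP1, which holds back cap-dependent translation until mTOR phosphorylates it, fell by 0.88 ± 0.18 (adjusted p = 0.00168). EIF4EBP2 of the same list went the other way from EIF4EBP1, at 21.976 to 22.197 CPM with vehicle and 28.379 to 30.635 with H3B-6527. AKT1, also of the list, was at 51.4 to 57.6 CPM with vehicle and 60.1 to 65.5 with H3B-6527. TSC1, SESN2 and EIF4EBP1 were named for their small p, and a shared direction of the list was not tested. All these values are mRNA levels and do not measure kinase activity.

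Mitochondrial ribosomal protein genes, which form a separate ribosome, had medians nearer 0 than the cytosolic genes with H3B-6527, with no test of the difference. Of 78 genes, 18 were lower with H3B-6527, or 23.1%, near the 24.3% of all genes. None was higher by edgeR's quasi-likelihood test, against 25.2% of all genes. By that test 28 had an unadjusted p under 0.05 in either direction, or 35.9%, against 56.1% of all genes. The median was -0.19. With the combination 21 were lower, or 26.9%, near the 25.3% of all genes. In the same comparison 2 were higher, or 2.56%, against 24.8% of all genes, and the median was -0.15. With lenvatinib the median was -0.01.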

How the data were processed

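RNA was sequenced from 12 tumors, 3 in each of 4 groups, assigned by the treatment in the labels. Numbers within a group follow the order of deposit and pair nothing. The deposited table holds estimated counts per gene symbol, not normalized. Per the submitters' processing notes, STAR and kallisto were used with builds GRCh37 and GRCm38. Versions, roles, the annotation, filters, strand use and the sorting of human from mouse reads are not given in the sources used here, and no sequence or coordinate is printed. The labels name mouse as the organism, while the symbols follow human style. Of all values 40.0% were not whole (tolerance 1e-06).

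Counts were rounded to whole numbers and fitted in R 4.3.3 with edgeR 4.0.16: filterByExpr on the groups, TMM, and the robust quasi-likelihood test on all 12 libraries in 1 fit, 2-sided, with Benjamini-Hochberg adjustment over 15836 genes and a threshold of 0.05. There were 6 comparisons, the interaction included. SE is the absolute log2 fold change over the root of F, an approximation. CPM uses TMM-scaled library sizes, and list means use log2(CPM + 1). Alternatives were no filter on low counts, library totals, TMM computed without the members, DESeq2 1.42.0, limma 3.58.1 voom, the 2 groups alone, and each tumor left out. The procedure was also run on simulated data in which few genes changed and genes varied independently. Members moved together in the real tumors, so that run does not bear on counts over members. The members, the lists and the rule for named genes were chosen with earlier results of these data known. That rule took paralogs and parents, stalk, 5S and 8 other members, the 5 largest rises and falls called in each comparison, up to 3 genes of each related list with the smallest p under H3B-6527, and the members with the highest and lowest mean CPM. Other genes named were picked after their values were seen. No test was made on lists as a whole. Precision is set by 3 tumors a group. At 4.72 CPM, the first vehicle value of RPL39L, a library of these sizes still holds over 100 counts. RPL39L itself was lower in H3B-6527 replicate 3, the smallest library, with 95.1 counts. Results for some genes are not reported here.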

Additional observations from a re-analysis of the deposited data

How the results depend on the processing

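No paired analysis was possible because the labels carry no replicate numbers. Medians of the members kept their sign in all alternatives run except the interaction, which ranged from -0.018 without H3B-6527 replicate 1 to 0.33 without H3B-6527 replicate 2. With single tumors left out, the median ran from -0.76 to -0.40 for H3B-6527 against vehicle, the count lower from 2 to 32 for the combination against vehicle and from 19 to 72 for the combination against lenvatinib. In the fits that gave 2 and 32, 20.7 and 28.2% of all genes were lower. In those that gave 19 and 72, the shares were 14.8 and 24.9%. With the 2 groups alone, 7 members were higher with lenvatinib and 33 lower with the combination against vehicle. DESeq2 called 1 member higher with lenvatinib and 2 higher with the combination against H3B-6527. Scaling to library totals gave 0 members higher and 34 lower with the combination against vehicle. The causes were not tested. Over the 82 members and 23 genes of related lists, 10733 of the single-gene values kept their call, 234 became called and 268 lost the call. Those 10733 include values called in neither fit, whatever their sign. Where either fit called a gene, 0 values reversed direction. RPL39L had the lowest mean CPM of the tested members, and its call was lost when single tumors were left out, as given above.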
